A study of Mus musculus with 4 samples.

Results

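The genes of cell killing were followed across the lymphocytes of a mouse liver cancer series: 5 granzymes (Gzma, Gzmb, Gzmc, Gzmk and Gzmm), the pore former Prf1, the granule membrane protein Nkg7, the chemokine Ccl5, the death ligand Fasl and the cytokine Ifng. They were taken by symbol from the count matrix, which held all 10 of them among 31053 genes. In mouse models in which hepatocellular carcinoma is induced by a gene, HCC-NL is normal liver dissected at week 0, and HCC-ES, HCC-MS and HCC-LS are tumor tissue dissected at week 4, at week 8 and at a last time, for which the sample label states week 10 and the design text week 12. Each has 1 sample, and the sources used here do not name the inducing gene, the strain or the age of the mice, or say how many mice were pooled. Tissue was digested and filtered, red cells were lysed and droplet-based 3′ libraries were made, with no sorting step described. No source pairs the 4 barcode suffixes of the matrix with the samples, so the suffixes are called libraries 1 to 4, the pool counts as 1 sample, no week is compared and no test was made.

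Killer lymphocytes store granzymes, a family of serine proteases, in granules together with perforin, which opens the membrane of the target cell so that the proteases can enter it. Fas ligand kills by another path, through the receptor Fas on the target cell. Ccl5 attracts further lymphocytes, and interferon gamma, the product of Ifng, acts on macrophages and on antigen presentation. In the liver, natural killer (NK) cells, the related group 1 innate lymphoid cells (ILC1), CD8 T cells and innate-like T cells are the known sources of these products.

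Gzma and Gzmk are direct neighbours on chromosome 13, with no other coding gene between them, and Gzmb and Gzmc are direct neighbours in a granzyme cluster on chromosome 14, by the order of coding genes in RefSeq. Promoter windows of 300 bases, from 250 bases before to 50 bases after the start, were found in the RefSeq table (build GRCm38.p6) for 9 of the 10 genes, 10 windows in all. The windows of Gzma and Gzmk are shown because these neighbours stood at opposite ends between NK cells and CD8 T cells, and those of Gzmb and Prf1 because their products work as a pair. Capitals mark the T-box motif GGTGTGA or its reverse complement TCACACC, and the Runx motif TGTGGT or its reverse complement ACCACA, which do not overlap. All are given 5′ to 3′ on the strand of the gene.
Gzma, chr13:113100932-113101231, minus strand: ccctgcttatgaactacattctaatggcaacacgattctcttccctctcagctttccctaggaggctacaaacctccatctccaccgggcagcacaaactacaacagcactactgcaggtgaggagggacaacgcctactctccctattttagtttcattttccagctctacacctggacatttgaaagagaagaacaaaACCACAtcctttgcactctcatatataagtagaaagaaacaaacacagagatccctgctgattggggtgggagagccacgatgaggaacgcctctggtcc
Gzmk, chr13:113180916-113181215, minus strand: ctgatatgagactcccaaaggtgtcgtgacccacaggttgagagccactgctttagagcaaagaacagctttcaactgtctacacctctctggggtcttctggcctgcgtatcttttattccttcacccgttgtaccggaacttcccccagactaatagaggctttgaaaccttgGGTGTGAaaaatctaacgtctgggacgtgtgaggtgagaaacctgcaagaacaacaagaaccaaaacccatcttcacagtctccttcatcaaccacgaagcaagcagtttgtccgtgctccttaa
Gzmb, chr14:56262285-56262584, minus strand: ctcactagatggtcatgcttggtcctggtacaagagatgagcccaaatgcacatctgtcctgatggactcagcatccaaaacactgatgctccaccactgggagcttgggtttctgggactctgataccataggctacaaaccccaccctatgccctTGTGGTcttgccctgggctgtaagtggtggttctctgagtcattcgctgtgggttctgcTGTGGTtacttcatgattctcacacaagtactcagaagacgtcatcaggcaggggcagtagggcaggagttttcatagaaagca
Prf1, chr10:61297586-61297885, plus strand: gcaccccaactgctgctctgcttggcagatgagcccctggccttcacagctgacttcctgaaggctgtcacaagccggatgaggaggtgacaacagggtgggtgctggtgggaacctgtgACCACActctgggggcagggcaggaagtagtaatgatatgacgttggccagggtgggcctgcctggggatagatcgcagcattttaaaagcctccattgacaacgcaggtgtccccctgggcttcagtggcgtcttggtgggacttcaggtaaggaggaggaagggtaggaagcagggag
The T-box letters were present in windows of 3 of the 9 genes (Gzmk, Nkg7 and 1 of the 2 windows of Gzmm), against 3.98% of all 32851 promoter windows of this length. The Runx letters were present in windows of 6 of the 9 genes (Gzma, Gzmb, Gzmc, Gzmm, Prf1 and Nkg7), against 16.8% of all windows. The Gzmb window held 2 Runx matches and 1 match of the AP-1 motif TGANTCA, which 7.81% of all windows held, and no window of the 9 genes held ATCAAAG, the motif of TCF and LEF factors, against 3.73% of all. These are matches of letters, not sites of binding.

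After filtering, 34783 cells remained, and 2364 of them (6.80%) lay in the 2 clusters led by T cell genes (1910 cells) and NK cell genes (454 cells). Classes were set cell by cell from markers that are not among the 10 genes. A CD4 T cell had a UMI (a counted RNA molecule) of Cd4, none of Cd8a or Cd8b1 and a UMI of a T cell receptor or Cd3 gene. An innate-like T cell had a Cd3 UMI and a UMI of a gamma-delta receptor gene, Zbtb16, Cd163l1, Il23r or 1 other gene of the gate, without Cd4 or Cd8. A CD8 T cell had a UMI of Cd8a or Cd8b1, none of Cd4 and a UMI of a T cell receptor or Cd3 gene. An NK cell had a UMI of an NK gene (Ncr1, Klrb1c, Klre1, Klra4, Klra8, Klra9 or Eomes) with no Cd3, Cd4 or Cd8. This gave 145 CD4 T cells (39, 47, 36 and 23 in libraries 1 to 4), 223 innate-like T cells (67, 31, 106 and 19), 604 CD8 T cells (133, 276, 111 and 84) and 347 NK cells (84, 155, 70 and 38). The NK class can hold ILC1, and 1045 lymphocytes (44.2%) met no gate.

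Markers outside the gates were compared between the classes. Levels are given as CPM, the UMIs of a gene per 1000000 UMIs summed over the cells of a class. Cd5, a T cell surface protein, stood at 210, 66.3, 105 and 0 CPM in CD4 T, innate-like T, CD8 T and NK cells, and the NK signalling gene Tyrobp at 34.7, 424, 83.3 and 2888. Tnfrsf4, found on activated CD4 T cells, stood at 372, 8.72, 42.4 and 1.10 CPM in the 4 classes, and Trgv2, a gamma-delta receptor segment, at 18.4, 178, 20.9 and 0. Not all markers parted the classes in this way. Cd40lg, the CD40 ligand of helper T cells, stood at 81.7 CPM in CD4 T and 143 in innate-like T cells, and Icos, a costimulatory receptor, at 127 and 124. Trdv4, another gamma-delta segment, stood at 31.4 CPM in innate-like T and 47.5 in NK cells, and the transcription factor Maf at 112 in CD4 T and 126 in innate-like T cells. Trac and Trbc2, alpha-beta receptor genes used in the CD4 and CD8 T gates, stood at 221 and 319 CPM in innate-like T cells. In CD8 T cells they stood at 228 and 197 CPM, so the innate-like class is not one of gamma-delta cells alone. Trdc, a delta receptor gene of its gate, was seen in 12.1% of its cells. Of the innate-like T cells, 23 lay in the NK cluster, as did 10 CD8 T cells and 1 CD4 T cell. Leaving out the innate-like T cells of the NK cluster was a choice made after seeing the data. Some of the values that moved without them, but not all, are given beside the results.

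The libraries differed in depth, with 15593960, 49975828, 24012736 and 40617071 UMIs in libraries 1 to 4, and median UMIs per lymphocyte of 1422, 2857, 1738 and 2457. Library 2 held 276 of the 604 CD8 T cells and 155 of the 347 NK cells. Pairs of libraries shared 104 to 147 barcode sequences, of 9027 to 10316 barcodes each. The classes had similar median depths, with 2197 UMIs in CD4 T, 2067 in innate-like T, 2815 in CD8 T and 2054 in NK cells. The 8 hepatocyte markers summed to 3079, 4092, 3814 and 4317 CPM in these classes, with a range over libraries of 654 to 9173, so hepatocyte RNA was present in all of them. In the 20342 cells of hepatocyte-like clusters, at a median of 2219 UMIs, Gzma was seen in 0.300% of cells, Gzmb in 0.0983%, Gzmk in 0.00983%, Prf1 in 0.0492%, Ifng in 0.0246% and Ccl5 in 1.43%, the share read as background from free RNA.

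Between 82.2% (Gzmc) and 96.9% (Gzmk) of the UMIs of each of the 10 genes lay in the T and NK clusters. Of the UMIs in these clusters, between 3.37% (Gzmm) and 33.5% (Ifng) lay in cells that met no gate. Pooled over libraries, 7 of the 10 were highest in NK cells (Gzma, Gzmb, Gzmc, Prf1, Nkg7, Ccl5 and Fasl), Gzmm was highest in CD8 T cells, Ifng in innate-like T cells and Gzmk in CD4 T cells. With cells thinned to 1000 UMIs Fasl was highest in innate-like T cells instead. In the plot of levels by class and library, NK cells were first in each of the 4 libraries for Gzma, Gzmc, Prf1, Nkg7 and Fasl, as were CD8 T cells for Gzmm and innate-like T cells for Ifng. NK cells were not first for Gzmb in library 4 and for Ccl5 in libraries 2 and 4, and CD4 T cells were first for Gzmk in library 2 alone. A granzyme UMI was found in 30.3% of CD4 T, 35.0% of innate-like T, 47.5% of CD8 T and 89.1% of NK cells. After each cell was thinned to 1000 UMIs, which left 137, 206, 576 and 305 cells, the shares were 24.1%, 26.2%, 32.6% and 85.6%.

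**Figure D1:**
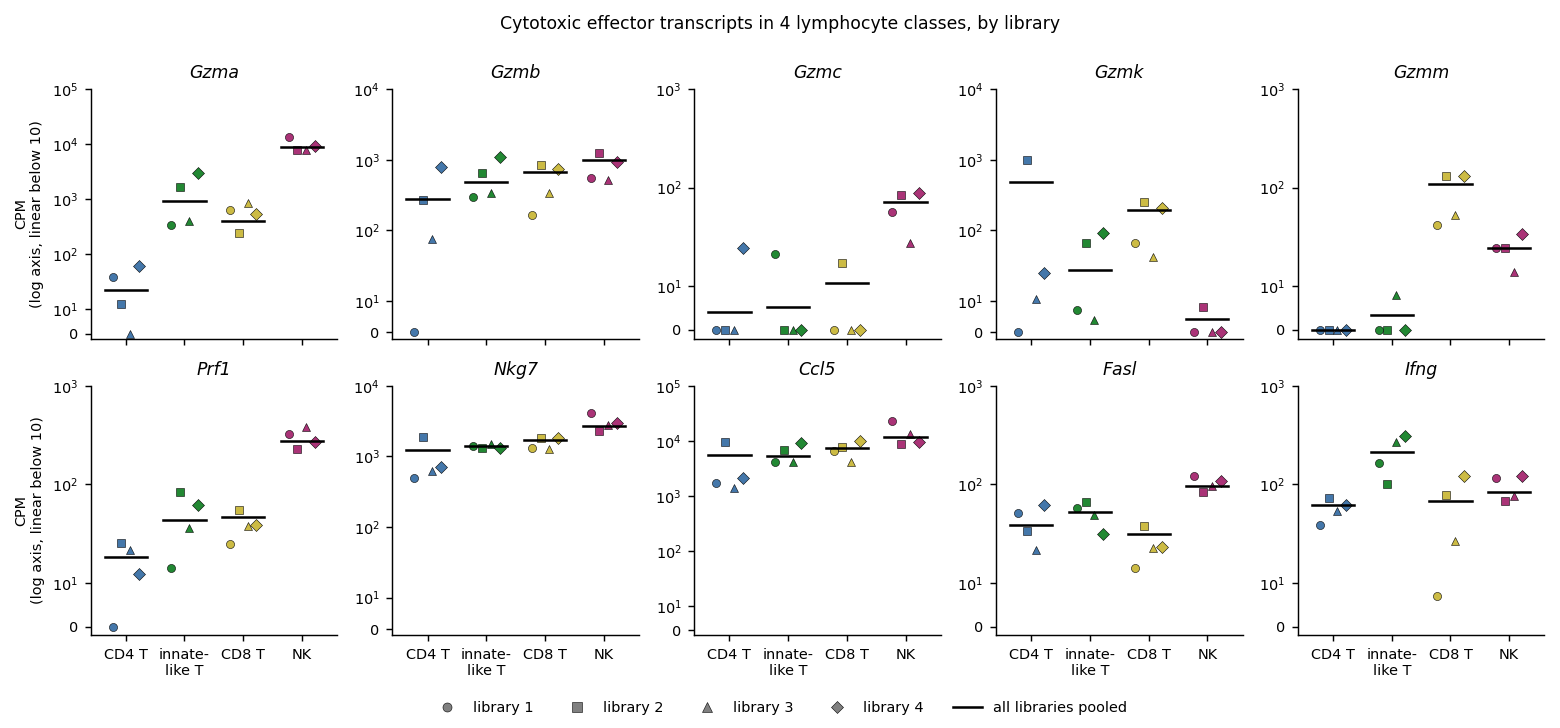
Levels of the 10 genes in CPM (log axis, linear below 10) in CD4 T, innate-like T, CD8 T and NK cells. Points are the 4 libraries and lines the pooled value. Gzma of NK cells lies between 7811 and 13430 in every library, above all other points of that gene, and the Gzmk point of CD4 T cells at 984 is library 2 alone.

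Perforin set NK cells apart. Prf1 (ENSMUSG00000037202) stood at 0, 25.3, 21.3 and 12.3 CPM in CD4 T cells of libraries 1 to 4, at 14.3, 83.2, 36.2 and 62.0 in innate-like T cells, at 24.5, 55.3, 37.6 and 38.8 in CD8 T cells, and at 327, 227, 379 and 269 in NK cells. The NK values overlapped with those of no T cell class. Pooled, CD8 T cells had 47.0 (95% interval 38.3 to 57.1) and NK cells 272 (239 to 308) CPM, a log2 ratio of -2.53 (-2.88 to -2.19), and innate-like T cells stood below NK cells by a log2 ratio of -2.64 (-3.29 to -2.04). Without the cells of the NK cluster the Prf1 ratio of innate-like T cells was -3.93 to NK cells, and to CD8 T cells it was -1.23 in place of -0.11, on 9 against 90 UMIs. CD4 T cells were below CD8 T cells on 9 against 101 UMIs, with a log2 ratio of -1.36 (-2.53 to -0.37). Intervals are exact and cover counting error only, since the pool has no replicate.

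Nkg7, which is needed for granule release, was found in every class, with a UMI in 48.3% of CD4 T, 80.3% of innate-like T, 85.8% of CD8 T and 93.4% of NK cells. Its level was 490, 1883, 618 and 712 CPM in CD4 T cells of libraries 1 to 4, 1397, 1297, 1477 and 1333 in innate-like T cells, 1325, 1824, 1281 and 1791 in CD8 T cells, and 4101, 2251, 2823 and 2996 in NK cells. CD8 T cells stood below NK cells in 4 of 4 libraries, but by less than the 2-fold set as the size of a call, with a log2 ratio of -0.69 (-0.76 to -0.61). It was past 2-fold without library 2, at -1.16, and with classes set by clusters, at -1.44. Innate-like T cells stood at a log2 ratio of -0.95 (-1.07 to -0.84) to NK cells. Without the cells of the NK cluster this was -1.10, past 2-fold. The CD4 T value of library 2 was above all 3 others of that class.

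Granzyme A, a tryptase, marked NK cells. Gzma (ENSMUSG00000023132) stood at 38.7, 12.7, 0 and 61.4 CPM in CD4 T cells of libraries 1 to 4, at 335, 1647, 398 and 2976 in innate-like T cells, at 647, 245, 838 and 544 in CD8 T cells, and at 13430, 7811, 7858 and 9439 in NK cells. It was seen in 80.1% of NK cells with a median of 21 UMIs where present, against 11.4% of CD8 T cells with a median of 4. The pooled log2 ratio of CD8 T to NK cells was -4.44 (-4.54 to -4.34), and that of CD4 T to CD8 T cells -4.18 (-5.19 to -3.34), on 11 against 876 UMIs. In 1 CD8 T cell of library 2 lay 212 of the 328 UMIs of that library.

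The Gzma level of innate-like T cells belonged to few cells. It was 934 CPM against 408 in CD8 T cells, a log2 ratio of 1.20 (1.04 to 1.35), but higher in 2 of 4 libraries only. The 23 innate-like T cells of the NK cluster stood at 5942 and the 200 of the T cluster at 145 CPM, and without the cells of the NK cluster the log2 ratio was -0.88 to CD8 T cells and -5.95 to NK cells, against -3.24 to NK cells with them. In libraries 2 and 4, 1 cell each held 154 of 198 and 169 of 192 UMIs.

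Granzyme B, which cuts after aspartate and activates caspases, was found in all classes. Gzmb stood at 0, 270, 74.6 and 786 CPM in CD4 T cells of libraries 1 to 4, at 299, 649, 342 and 1100 in innate-like T cells, at 164, 838, 334 and 734 in CD8 T cells, and at 555, 1250, 510 and 914 in NK cells. It was seen in 194 of the 347 NK cells. The CD4 T value of library 4 came from few cells: 1 of the 2 with Gzmk and 5 of the 21 without had Gzmb. The CD8 T and NK values overlapped, though CD8 T cells were lower in each of the 4 libraries, with a pooled log2 ratio of -0.54 (-0.67 to -0.42). With classes set by clusters this ratio was -1.77, past 2-fold. Within each class, libraries 2 and 4 lay above libraries 1 and 3. These 2 libraries were also the deepest, and the part of depth in this order was not tested. In NK cells thinned to 1000 UMIs, 18 cells had Gzmb and 45 did not in library 1, and 17 and 39 in library 3. In libraries 2 and 4 these counts were 88 and 61, and 19 and 18. CD4 T cells were below CD8 T cells by a log2 ratio of -1.29 (-1.55 to -1.03), and this was -0.52 without library 2 and -0.87 with libraries at equal weight, neither past 2-fold. Innate-like T cells stood at a log2 ratio of -1.03 (-1.23 to -0.83) to NK cells, which is at the 2-fold limit and fell short of it without any of libraries 1, 2 and 3, at -0.96, -0.61 and -0.87. It was further past 2-fold without library 4 at -1.31, without the cells of the NK cluster at -1.55 and with classes set by clusters at -3.53.

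Gzmc, a granzyme of strongly stimulated killer cells, was rare and, among the 4 classes, belonged to NK cells. Of its 134 UMIs in the T and NK clusters, 41 lay in lymphocytes that met no gate. It had 2 UMIs in CD4 T, 3 in innate-like T, 23 in CD8 T and 65 in NK cells, and 21 of the 23 UMIs of CD8 T cells came from 1 cell. In NK cells it stood at 57.2, 83.8, 27.6 and 87.3 CPM in libraries 1 to 4, in 22 of 347 cells. The log2 ratio of CD8 T to NK cells was -2.74 (-3.50 to -2.04), and, by a choice made after seeing the data, -6.25 without cells that hold at least 20% of the UMIs of 1 of the genes. Gzmd, Gzme, Gzmf, Gzmg and Gzmn, the near copies beside Gzmc and Gzmb, had 0 UMIs in the 4 classes, and the sources used here do not say how reads shared by near copies were counted.

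Granzyme K belonged to T cells. Gzmk (ENSMUSG00000042385) stood at 0, 984, 10.7 and 24.6 CPM in CD4 T cells of libraries 1 to 4, at 7.13, 66.5, 4.02 and 93.0 in innate-like T cells, at 66.4, 248, 41.3 and 206 in CD8 T cells, and at 0, 8.17, 0 and 0 in NK cells. CD8 T cells had 415 UMIs in 110 of 604 cells, and NK cells 4 UMIs in 3 of 347 cells, a log2 ratio of 5.45 (4.08 to 7.33). Gzma, its neighbour on the chromosome, had the opposite order between these classes. Of their promoter windows printed above only that of Gzmk holds the T-box letters and only that of Gzma the Runx letters. The Runx letters are also in windows of Gzmm, higher in CD8 T cells, and of Prf1, higher in NK cells. A link between these letters and the levels was not tested. CD4 T cells owed their first place to library 2, which held 233 of 236 UMIs, in 29 of its 47 cells. The pooled log2 ratio of CD4 T to CD8 T cells was 1.32 (1.08 to 1.55), with library 2 at 1.99, and it was -3.11 without library 2.

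Granzyme M, which cuts after methionine and leucine, was found in CD8 T cells. Gzmm stood at 0 UMIs in CD4 T cells of all 4 libraries, at 0, 0, 8.05 and 0 CPM in innate-like T cells of libraries 1 to 4, at 42.0, 130, 52.6 and 132 in CD8 T cells, and at 24.5, 24.5, 13.8 and 33.6 in NK cells. Each CD8 T value was above each NK value. The pooled level was 109 (95.4 to 124) in CD8 T and 24.3 (15.2 to 36.8) CPM in NK cells, a log2 ratio of 2.17 (1.53 to 2.87). Against the 234 UMIs of CD8 T cells, the absence in CD4 T cells corresponds to an at least 17.8-fold lower level, taking 3 counts over the class as the floor. Innate-like T cells had 2 UMIs, in 1 cell, and a log2 ratio of -4.97 (-8.02 to -3.10) to CD8 T cells.

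Fasl, the death ligand, stood at 51.5, 33.8, 21.3 and 61.4 CPM in CD4 T cells of libraries 1 to 4, at 57.0, 66.5, 48.3 and 31.0 in innate-like T cells, at 14.0, 38.1, 22.5 and 23.3 in CD8 T cells, and at 122, 83.8, 96.4 and 107 in NK cells. NK cells had the highest value in each library and CD8 T cells the lowest pooled value, 31.2 (24.2 to 39.6) against 94.9 (75.9 to 117) CPM, a log2 ratio of -1.61 (-2.09 to -1.13). With cells thinned to 1000 UMIs this ratio was -0.98, just short of 2-fold, and innate-like T cells stood at 82.5 CPM against 72.1 in NK cells, a log2 ratio of 0.19 where all UMIs gave -0.86.

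Ccl5 was the most widespread of the secreted products and was seen in 48.3% of CD4 T, 77.1% of innate-like T, 67.7% of CD8 T and 97.7% of NK cells. Its level was 1675, 9655, 1397 and 2100 CPM in CD4 T cells of libraries 1 to 4, 4042, 6753, 4084 and 9066 in innate-like T cells, 6482, 7853, 4139 and 9993 in CD8 T cells, and 22767, 8892, 13126 and 9668 in NK cells. The classes overlapped, and library 2 had the highest value of CD4 T cells and the lowest of NK cells. CD8 T cells differed from NK cells by a log2 ratio of -0.63 (-0.67 to -0.60), and innate-like T cells by -1.16 (-1.22 to -1.10). The first of these was -0.37 without library 1, and past 2-fold without library 2 at -1.11 and with classes set by clusters at -1.71. The second was -0.82 without library 1, -0.90 without library 3 and -1.58 without the cells of the NK cluster.

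Interferon gamma was the product in which innate-like T cells led. Ifng stood at 38.7, 71.8, 53.3 and 61.4 CPM in CD4 T cells of libraries 1 to 4, at 164, 99.8, 270 and 310 in innate-like T cells, at 6.99, 77.7, 26.3 and 120 in CD8 T cells, and at 114, 67.4, 75.8 and 121 in NK cells. Innate-like T cells were above both CD8 T and NK cells in each of the 4 libraries. Their pooled level of 213 (177 to 254) was set against 67.0 (56.5 to 78.9) CPM in CD8 T cells, a log2 ratio of 1.67 (1.31 to 2.02), and against 83.9 (66.1 to 105) in NK cells, a log2 ratio of 1.34 (0.92 to 1.77). Without library 3, which held 67 of the 122 UMIs, the ratio to NK cells was 0.99. Innate-like T cells of the T cluster alone stood at 236 CPM. When classes were set by clusters of the lymphocytes in place of single cells, the ratios were -1.45 and -2.11: only 46 cells were then called innate-like, and a cluster led by Il4 and Cd40lg that held 102 of the gated innate-like T cells was named CD4 T.

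Counted together, a gene was called when it differed at least 2-fold, with an interval that excluded equality and at least 20 UMIs over both classes. All 10 genes had the UMIs to be compared in each class pair. In CD4 T against CD8 T cells, 1 gene was higher (Gzmk) and 4 were lower (Gzma, Gzmb, Gzmm and Prf1), where 3.63% of 8700 genes were higher and 2.22% lower (5.85% in either direction). In innate-like T against CD8 T cells, 2 were higher (Gzma and Ifng) and 2 lower (Gzmk and Gzmm), where 4.23% of 8775 genes were higher and 3.97% lower (8.19% in either direction). In innate-like T against NK cells, 2 were higher (Gzmk and Ifng) and 6 lower (Gzma, Gzmb, Gzmc, Gzmm, Prf1 and Ccl5), where 3.08% of 7374 genes were higher and 7.42% lower (10.5% in either direction). In CD8 T against NK cells, 2 were higher (Gzmk and Gzmm) and 4 lower (Gzma, Gzmc, Prf1 and Fasl), where 3.13% of 9183 genes were higher and 6.80% lower (9.92% in either direction). The comparisons share their classes, so the counts are not independent. The call of Gzmk in innate-like T against NK cells rests on 16 against 4 UMIs, with a log2 ratio of 2.66 (1.03 to 4.70).

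**Figure D2:**
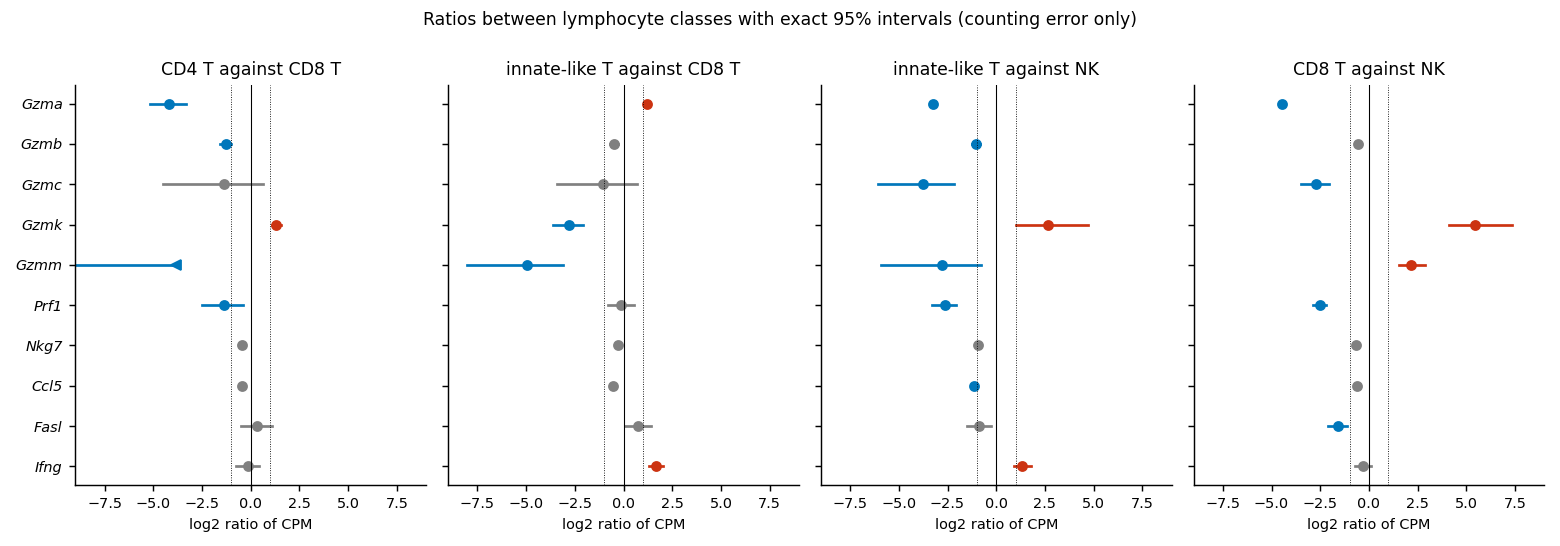
Log2 ratios of CPM for the 10 genes in 4 pairs of classes, with exact 95% intervals as bars (counting error only, cut at the axis limits) and dotted lines at 2-fold. Red marks calls in the class named first, blue those in the other, grey no call. Gzmm of CD4 T cells, with 0 UMIs, is drawn as the upper end of its interval.

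Genes that work with these products were taken from lists. Of 13 genes for granule load and release, 3 were lower in CD8 T than in NK cells and 0 higher, with a median log2 ratio of -0.43 against -0.19 over all genes. These 3 were Serpinb9, the inhibitor of granzyme B, at -1.70 (-2.04 to -1.37), Serpinb6b, a related inhibitor, at -1.62 (-1.99 to -1.25), and cathepsin W, Ctsw, at -1.02 (-1.16 to -0.88). Of 11 activating receptors and signalling genes 9 were lower in CD8 T than in NK cells, led by the adaptors Tyrobp at -5.12 and Fcer1g at -4.76 and the receptor Klrk1 at -3.12. Of 14 transcription factors 3 were higher and 4 lower in CD8 T cells. The 3 higher, Lef1 at 2.66, Id3 at 1.87 and Tcf7 at 1.56, are known from resting and memory T cells, and among the lower were Tbx21 at -1.69, which encodes the effector regulator T-bet, and Id2 at -1.67. Of the 604 CD8 T cells, 106 and 70 lay in clusters of the lymphocytes alone that had Lef1 among their leading genes. The pooled CD8 T levels include these cells. Among the ligands, 3 of 7 compared were lower in CD8 T cells (Xcl1 at -2.56, Ccl3 at -1.21 and Ccl4 at -1.13). Of 6 targets of interferon gamma compared, 1 was higher (Gbp2 at 1.21) and 0 lower.

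With all cells of the gates, innate-like T cells stood between CD8 T and NK cells in Tyrobp, Fcer1g, Klrk1 and Xcl1, and below both in Ccl3 and Ccl4. Against CD8 T cells, 5 of 11 activating receptors and signalling genes were higher and 0 lower, with a median log2 ratio of 0.86 against -0.02 over all genes, among them Tyrobp at 2.35, Fcer1g at 2.10 and Klrk1 at 1.43. Without the cells of the NK cluster these were 0.38, 1.22 and 0.68, and Fcer1g alone of these 3 was called. Of 8 ligands compared, 4 were higher, with Xcl1 at 1.33, and 2 lower, Ccl3 at -2.84 and Ccl4 at -1.11. Without the cells of the NK cluster Ccl4 stood at -3.20 to CD8 T cells and at -4.32 to NK cells. Eomes stood at -3.71 and Id2 at 1.77 among 14 transcription factors, of which 2 were higher and 3 lower, and Lyst, a regulator of lysosome traffic, was higher at 1.48 and Cst7, cystatin F, lower at -1.18 among 13 granule genes. Against NK cells, 6 of the 11 activating receptors and signalling genes were lower and 0 higher, and Ccl3 stood at -4.06, Ccl4 at -2.24 and Serpinb9 at -2.48. In CD4 T against CD8 T cells, 4 of 9 activating receptors and signalling genes compared were lower, led by Klrd1 at -2.55, and 0 of 7 ligands were called. Srgn, the proteoglycan that holds granzymes in the granule, was higher in CD4 T cells at 1.05, and Ctsw lower at -1.45.

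Within CD8 T cells, Gzmk and Gzmm were seldom found in the same cell, most clearly in library 2. Each was seen in 110 of 604 cells, and 8 cells held both. Among cells with Gzmm, 7.27% (3.19 to 13.8) also had Gzmk, against 20.6% (17.2 to 24.5) of cells without Gzmm. In library 2, which held 276 of the cells, the shares were 6.49% of 77 and 35.7% of 199. In libraries 1 and 3 the shares were 0 of 8 and 0 of 9 cells with Gzmm against 6.40% and 5.88% of cells without, and in library 4 they were 18.8% (4.05 to 45.6) of 16 and 25% (15.3 to 37.0) of 68, so the intervals overlapped. After thinning to 1000 UMIs, 0 of 54 cells with Gzmm had Gzmk, with an exact upper limit of 6.60%, against 9.58% of 522 cells without it. Gzmb went with Gzmk: with all UMIs it was present in 71.8% of cells with Gzmk and in 18.2% of those without. The share was then higher with Gzmk in each of the 4 libraries. After thinning the shares were 48.0% of 50 and 15.8% of 526 cells. In library 1 they were then 0 of 4 cells against 7.63%, and in libraries 3 and 4 the intervals overlapped. Gzma was also found more often beside Gzmk, with Gzmk in 52.2% of 69 cells with Gzma and in 13.8% of cells without.

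The 102 CD8 T cells with Gzmk and no Gzmm and the 102 with Gzmm and no Gzmk were set side by side, a division made after the counts of cells with both were seen. Their median depths were 4045 and 4288 UMIs. Cells with Gzmk had more Gzmb, at 1410 against 447 CPM (log2 ratio 1.66, 1.43 to 1.89), more Ccl5, at 13165 against 4698 (1.49, 1.42 to 1.56), and more Ifng, at 156 against 33.5 (2.22, 1.42 to 3.11), where 13.1% of all genes were called in either direction. Ccl5 was higher in 4 of 4 libraries and Ifng in 2 of 3 with a UMI, and Gzmb was higher in 3 and level in library 3, at 665 against 664 CPM. Gzmc was called lower, at 2 against 21 UMIs, of which 1 cell held 21. The lists were mixed: 4 of 13 granule genes compared were higher and 2 lower in the Gzmk cells, 2 and 4 of 11 transcription factors, 1 and 4 of 9 activating receptors and signalling genes, and 2 and 1 of 5 ligands. Ccl3 at 6.98 and Ccl4 at 3.85 were higher, as was Bhlhe40, a transcription factor of activated T cells, at 1.75, while the Gzmm cells had more Ltb, which encodes lymphotoxin beta, at -1.28, and more Klrd1 and Ctsw, at -1.26 and -1.07. Tcf7, Stat4, Id3 and Lef1 were lower in the Gzmk cells, at -2.27, -1.62, -1.89 and -1.11, each on fewer than 100 UMIs.

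NK cells were divided by genes of ILC1 and of mature NK cells. There were 68 cells with a UMI of Itga1, Cxcr6, Il7r or Cd200r1 and none of Eomes, Itga2, S1pr5, Itgam or Cma1, and 145 cells with the reverse, at median depths of 2158 and 2272 UMIs. Gzma stood at 3286, 4216, 671 and 42.1 CPM in the ILC1 side of libraries 1 to 4 and at 14743, 9605, 9506 and 16986 in the mature NK side, without overlap. Prf1 stood at 0, 126, 74.6 and 42.1 in the ILC1 side and at 445, 269, 531 and 487 in the mature NK side, again without overlap. Gzmc had the reverse order, at 308, 223, 149 and 168 in the ILC1 side and at 0, 68.3, 0 and 0 in the mature NK side. The pooled log2 ratios were -1.94 (-2.07 to -1.81) for Gzma, -2.03 (-2.87 to -1.28) for Prf1 and 2.61 (1.71 to 3.58) for Gzmc, on 37 against 15 UMIs, and 6.61% of all genes were called in either direction. Gzmb differed by -0.14 (-0.43 to 0.14) and was higher on the ILC1 side in library 3 alone. As far as counting error goes this interval leaves out a 2-fold difference, but it does not cover the spread between cells or libraries. Gzmm had 0 UMIs in the ILC1 side and 17 in the mature NK side. Of the ILC1 side, 4 cells came from library 4. The lists gave Xcl1 at 2.74 and Ltb at 2.69, both higher on the ILC1 side.

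**Figure D3:**
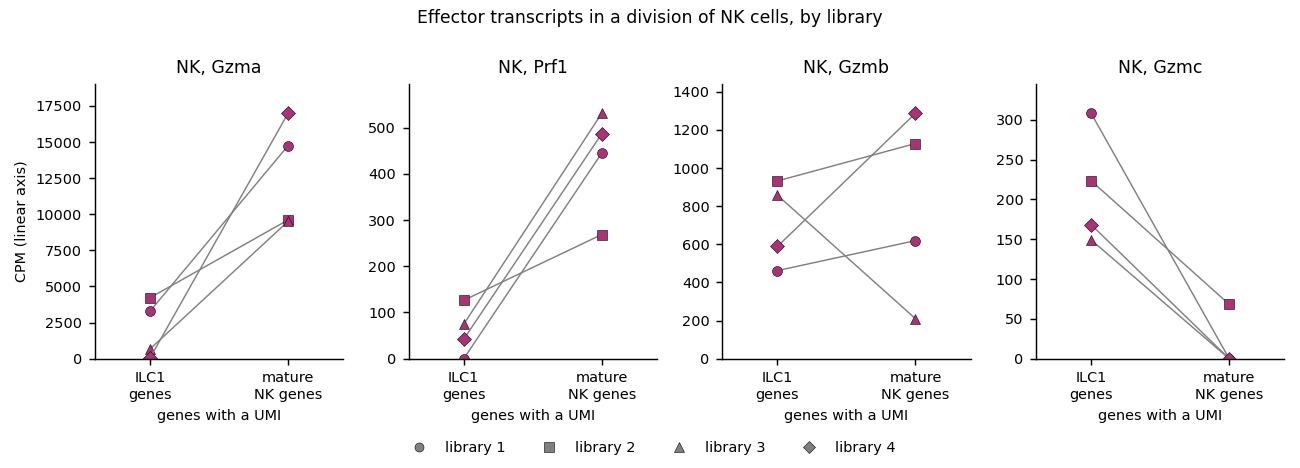
CPM (linear axis) in NK cells with a UMI of ILC1 genes only (left) and of mature NK genes only (right), with 1 symbol per library joined by a line. Gzma and Prf1 are lower and Gzmc is higher on the left in 4 of 4 libraries, and Gzmb is higher on the left in library 3 alone.

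Killing genes met in 1 cell mostly among NK cells. A granzyme and Prf1 were both seen in 4.83% (1.96 to 9.69) of CD4 T, 4.93% (2.49 to 8.65) of innate-like T, 9.27% (7.08 to 11.9) of CD8 T and 38.3% (33.2 to 43.7) of NK cells. In cells thinned to 1000 UMIs these shares were 0.730%, 1.94%, 2.43% and 24.6%. In NK cells, Gzma was present in 94.0% of cells with Prf1 and in 71.4% of those without, and Gzmb in 67.2% and 48.8%. After thinning, Gzma was still apart, at 91.0% and 70.9%, while Gzmb stood at 48.7% and 45.8%. In library 3 Gzmb was less frequent in the cells with Prf1, at 32.1% against 42.9%. Of the 22 NK cells with Gzmc, 20 also had Gzmb. In CD8 T cells, Prf1 was found in 34.5% of cells with Gzmk against 6.28% of cells without, while in library 4 it was 10.0% against 7.81%, and after thinning 10.0% against 3.99% over all libraries.

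**Figure D4:**
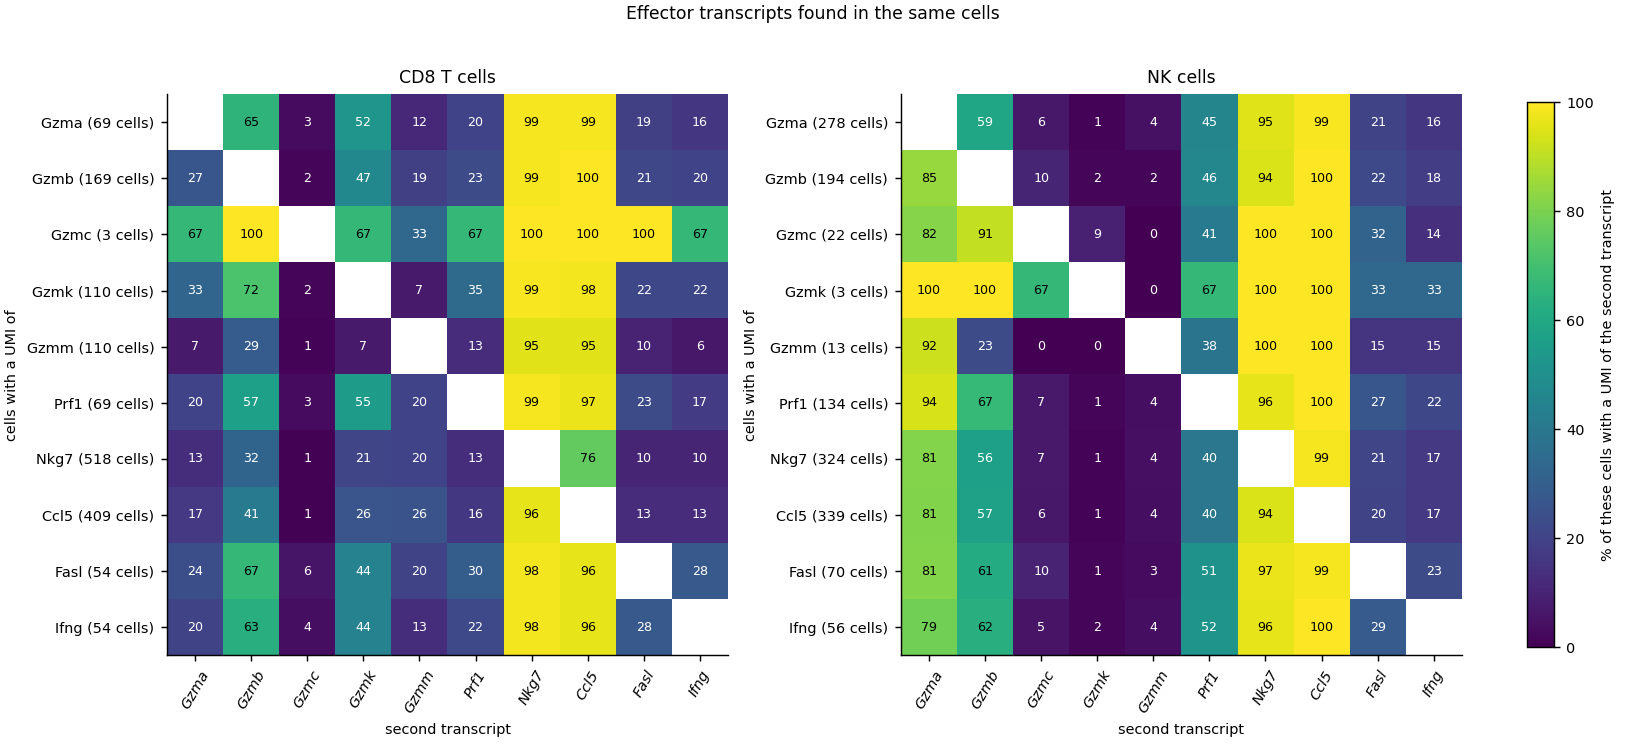
Share of cells with a UMI of the row gene that also had a UMI of the column gene, in % (colour and number), for CD8 T and NK cells, with the number of cells per row. The CD8 T panel has 7% at the meeting of Gzmm with Gzmk and 72% at that of Gzmk with Gzmb, and the row of Gzmc in CD8 T cells stands on 3 cells.

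Among innate-like T cells, 179 had a gamma-delta receptor gene or Cd163l1 and 32 had Zbtb16, a factor of innate-like T cells, without them. The first group had Gzma at 841 against 33.8 CPM, a log2 ratio of 4.64 (3.08 to 6.92) on 379 against 3 UMIs, with 169 of the 379 in 1 cell of library 4, and Ifng at 246 against 113, a log2 ratio of 1.13 (0.19 to 2.23), where 6.92% of all genes were called in either direction. Gzma was higher in 4 of 4 libraries and Ifng in 3. Gzmb stood at 470 against 417 CPM and was not called. Fcer1g and Tyrobp were higher too, at 3.00 and 4.41. Without the 22 cells of the NK cluster, which held 310 of the 379 UMIs, the log2 ratios were 2.43 for Gzma and 1.32 for Ifng, both called, and 1.42 for Fcer1g and 1.67 for Tyrobp, of which Fcer1g was called.

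The CD4 T cells with Gzmk in library 2 were set against the other CD4 T cells of that library, 29 against 18 cells. Those with Gzmk had more Nkg7, at 2182 against 903 CPM (log2 ratio 1.27, 0.85 to 1.73), and more Ccl5, at 11233 against 4480 (1.33, 1.14 to 1.52), where 15.7% of all genes were called in either direction. They had less Ccl4, at 843 against 3902 CPM (-2.21, -2.52 to -1.91). Gzmb was seen in 15 of the 29 and in 2 of the 18 cells, at 286 against 217 CPM, which was not called. With cells thinned to 1000 UMIs, Gzmb was seen in 5 of 20 cells with Gzmk and in 5 of 27 without. Median depths were 3318 and 2479 UMIs.

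Outside the T and NK clusters the 10 genes were scarce, with exceptions. Nkg7 stood at 408 CPM, in 51 of 210 cells, of a cluster led by the granulocyte precursor genes Elane and Mpo. Ccl5 stood at 807, in 85 of 651 cells, of a cluster led by Cst3 and MHC class II genes, and at 193, in 162 of 1850 cells, of a cluster led by the complement genes C1qb and C1qc. Of the 29 UMIs of Gzmc outside the lymphocytes, 28 were in 1 cell.

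Likeness was measured as the Pearson correlation of log2 levels over 16 points, 4 classes in 4 libraries, among 2938 genes, as a description whose points share libraries and depth. The genes most like Gzma were Klra7 (0.96), Cd7 (0.94) and Fcer1g (0.92). Those most like Prf1 were Plek (0.92), Klra7 (0.92) and Klra8 (0.91), the last being a gene of the NK gate. Gzmm was most like Cd8a (0.82) and Cd8b1 (0.81), which define the CD8 T class. Nkg7 and Ccl5 were each most like the other (0.93), and Ccl5 was next most like Ccl4 (0.93). Gzmb was most like Gadd45g (0.89), Fasl like Rnf130 (0.89), Ifng like Zfp36l2 (0.82) and Gzmk like Rabggtb (0.79).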

How the data were processed

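Per the file headers, Cell Ranger 6.0.1 wrote the matrix that the authors deposited, which holds raw UMI counts. Libraries were made with a 10x Genomics 3′ kit per the labels' protocols, and the submitters' processing notes name the build mm9. Barcodes with at least 200 genes, 500 UMIs and under 20% mitochondrial UMIs were kept, and 1367 with a Scrublet score above 0.25 were removed as doublets. Clusters came from scanpy 1.11.5 (2000 variable genes without the 10 genes and the lists, 30 components, 15 neighbours, resolution 1). Summed counts of a class are shown as CPM with exact Poisson intervals, shares with Clopper-Pearson and ratios with conditional binomial intervals (scipy 1.17.1), all at 95%. In folds, 3 counts over the class stand for 0. The ratio code was tested on simulated counts. Genes of the lists are named if called on at least 100 UMIs, up to 3 in each direction per comparison, and others are named with their small counts. The 10 genes, the gates and the lists were chosen with earlier results of these data known. Alternatives covered doublets, mitochondrial limit, gates, clusters, totals, library weights, left-out libraries and depth. Leaving out cells of the other lymphocyte cluster, cells rich in 1 of the genes or cells with hepatocyte RNA was chosen after seeing the data. Some genes used in gates and lists are not reported here.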

Additional observations from a re-analysis of the deposited data

How the results depend on the processing

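No paired analysis was possible because the pool counts as 1 sample with no replicate numbers; the ratios within each library stand beside the results. Of 547 log2 ratios recomputed under the alternatives, 393 moved by less than their interval, 148 moved by more and 6 reversed. These 6 were past 2-fold with all cells of the gates. Changes of sign in ratios not past 2-fold are not counted as reversed. Among them, with cluster classes, were Nkg7 at 0.66 and Ccl5 at 1.04 in CD4 T against CD8 T. Fasl stood at -0.80 in innate-like T against CD8 T with these classes. The reversals came from classes set by clusters of the lymphocytes (in CD4 T against CD8 T, Gzmb at 0.47 and Prf1 at 0.13; Ifng in innate-like T at -1.45 against CD8 T and -2.11 against NK), from leaving out library 2 (Gzmk in CD4 T against CD8 T, -3.11, against 1.58 without library 4) and, chosen after seeing the data, from T classes without the NK cluster (Gzma in innate-like T against CD8 T, -0.88). In CD4 T against CD8 T cells, 3 genes in place of 5 were past 2-fold with cluster classes, equal library weights and thinned cells. With cluster classes they were Gzmm, alone of the 5, with Ccl5 at 1.04 and Ifng at 2.09, both higher in CD4 T cells. They were Gzma, Gzmm and Prf1 with equal library weights, and Gzma, Gzmk and Gzmm with thinned cells. Leaving out library 2 gave Gzma, Gzmk, Gzmm, Nkg7 and Ccl5, all lower in CD4 T cells. Ccl5 was thus past 2-fold in opposite directions with cluster classes and without library 2. Without library 2, Nkg7, Ccl5 and Ifng joined the genes past 2-fold in CD8 T against NK cells. With thinned cells 5 genes were called in this pair, with Ifng among them and Gzmc and Fasl no longer so. With cluster classes 9 were called, with Gzmb, Nkg7 and Ccl5 added. Without 1 library, the numbers past 2-fold ranged from 5 to 6 in CD4 T against CD8 T, 3 to 5 in innate-like T against CD8 T, 4 to 7 in innate-like T against NK, with 5 without library 1 and 4 without library 3, and 6 to 9 in CD8 T against NK. The share of cells with a granzyme and Prf1 ranged without 1 library from 2.04% to 6.60% in CD4 T, 3.42% to 7.05% in innate-like T, 4.88% to 10.8% in CD8 T and 37.0% to 41.1% in NK cells. Under thinning the 4 shares were 0.730%, 1.94%, 2.43% and 24.6%, with cluster classes 2.17% in innate-like T and 4.67% in CD8 T, and in innate-like T 2.33% with 2 UMIs asked of the gate and 2% without the NK cluster. The cause of these shifts was not tested, other than that fewer UMIs per cell lower a share. Few UMIs limit several values: Gzmc, Gzmm, Prf1, Fasl and Ifng had at most 246 UMIs in any class. Gzmk had 16 in innate-like T and 4 in NK cells.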
